A study of Homo sapiens with 9 samples.

Results

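YAP1 and WWTR1, the TEAD1 and TEAD4 proteins they bind, and 6 of their known target genes or regulators were followed in the RNA of MIA PaCa-2 cells, an established human pancreatic cancer line. The 10 genes, YAP1, WWTR1, TEAD1, TEAD4, CYR61, CTGF, ANKRD1, AMOTL2, AJUBA and LATS2, were chosen by name from the 58735 genes of the count table, with earlier results of these data known. The rule itself uses no measured value. Cells with the genotype label WT had been grown for 24 h with 1 μM SCH772984, an inhibitor of the ERK1/2 kinases, with 1 μM compound 1, an inhibitor of TBK1 and IKKε, or with 0.1% DMSO as the vehicle. Each treatment was represented by 3 libraries. All 9 libraries are of this single cell line, and the labels do not say whether the 3 libraries of a treatment came from separate cultures, so the p-values below measure the spread between libraries.

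YAP1 and WWTR1 (also called TAZ) are transcriptional coactivators that do not bind DNA themselves. They enter the nucleus and act through the TEAD proteins, which recognize a short DNA motif near their target genes. In the Hippo pathway the kinases STK3 and STK4 (MST2 and MST1) activate LATS1 and LATS2, which phosphorylate YAP1 and WWTR1 and hold them in the cytoplasm. Several targets feed back on the pathway: LATS2 is itself such a kinase, AMOTL2 retains YAP1 in the cytoplasm or at junctions, and the LIM protein AJUBA restrains the LATS kinases. In pancreatic cancer YAP1 is known as a factor that can support tumor growth.

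Library totals ranged from 9464432 to 13887859 counts, and the 10 genes took 0.0966 to 0.140% of the counts of a library. Levels are given as counts scaled to a common library size (CPM) after TMM scaling, and levels of different genes are compared only as CPM per kilobase of exon (CPM/kb). Because these are bulk values scaled to the library, fewer expressing cells and less RNA per cell cannot be told apart. DUSP6, SPRY4 and ETV4, genes that ERK activity keeps on, checked the SCH772984 label: SPRY4 had 1.58 to 2.75 CPM with SCH772984, against 226 to 236 CPM in DMSO libraries and 232 to 252 CPM in compound 1 libraries. DUSP6 and ETV4 were called lower with SCH772984 and not with compound 1. DUSP6 had 40, 25 and 51 counts with DMSO and 0, 1 and 0 with SCH772984, and ETV4 had 339, 311 and 290, then 10, 4 and 9. Against DMSO, both passed the minimum count only through the DMSO libraries, where they are high. The keratins KRT8 and KRT18 and vimentin were high in all libraries and KRT19 was present. EPCAM had no count, KRT7 had at most 5 counts in a library, and the 5 acinar and islet markers and PTPRC had 0 counts everywhere. CDH1 had 0 counts with DMSO, 1, 3 and 1 with compound 1, and 5, 4 and 5 with SCH772984, too few to test. KRT18 fell by 2.40 and KRT8 by 1.69 on the log2 scale with SCH772984. Vimentin fell by 0.23 (edgeR adjusted p = 0.000899), a call lost with scaling by library size alone. COL1A1 rose from 0.110 to 0.410 CPM with DMSO to 2.36 to 3.22 CPM with SCH772984. It had 4, 1 and 2 counts with DMSO and 29, 28 and 48 with SCH772984, so it passed the minimum count only through the group where it is high. PECAM1 had at most 1 count in a library. What part these markers have in the results below was not tested. Compound 1 replicate 1 stood apart from replicates 2 and 3, and the chi-square of their counts was 10.1 and 7.61 for each degree of freedom, against 2.66 between those 2. Without it, the genes called with compound 1 after adjustment went from 63 higher and 48 lower to 453 higher and 798 lower, so results with compound 1 are given with and without it where they differ.

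With DMSO, CYR61 was the most abundant of the 10 genes at 137 ± 7.59 CPM/kb (SD, n = 3). AMOTL2 followed at 43.6 ± 2.18 CPM/kb and TEAD4 at 39.2 ± 3.64 CPM/kb, and the libraries of these 2 overlapped. WWTR1 stood at 27.8 ± 0.353 CPM/kb, above YAP1 in every library. LATS2 (11.5 ± 0.899 CPM/kb) and YAP1 (11.4 ± 1.16 CPM/kb) overlapped, and TEAD1 came next at 9.51 ± 0.681 CPM/kb. AJUBA (6.79 ± 0.440 CPM/kb) and CTGF (4.21 ± 0.0772 CPM/kb) were lower again, and ANKRD1 had no count. CYR61 and CTGF, related secreted matricellular proteins that serve as the usual readouts of YAP1 activity, were thus 30.5- to 35.2-fold apart within a DMSO library.

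SCH772984 changed 8 of the 9 genes that could be tested, and it split them into equal sets. TEAD1, CYR61, AJUBA and LATS2 were higher, while YAP1, WWTR1, TEAD4 and CTGF were lower (edgeR's quasi-likelihood test with Benjamini-Hochberg adjustment over all genes tested). AMOTL2 was not called, and ANKRD1 was too low to test. The same test called 37.2% of all 13834 tested genes higher and 35.5% lower, so that the members' counts of 4 higher and 4 lower lie near what was found across all genes. Over the 9 tested genes the median log2 fold change was -0.12, against 0.03 over all tested genes. Scaling by library size alone raised that overall median to 0.20 and turned the split over all genes from 5150 higher and 4916 lower into 6242 higher and 3911 lower, but the 4 higher and 4 lower members kept their calls.

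Compound 1 left most of the 10 genes near their DMSO level. TEAD4 and AMOTL2 were lower and no member was higher, where 0.374% and 0.49% of 12849 tested genes were called lower and higher (48 and 63 genes, or 25 and 85 with library size alone). The 2 lower members became 1 with library size alone, and 1 to 3 with each library left out, where 3 to 798 of all tested genes were lower. The 3, with CYR61 added, came without compound 1 replicate 1, where 798 of 13084 tested genes were lower and 453 higher. At an unadjusted p under 0.05, CYR61 and AJUBA were also below DMSO, giving 4 lower members and 0 higher, beside 7.69% of all tested genes lower and 7.35% higher. DESeq2 called 2 members lower and 0 higher after adjustment, beside 119 lower and 117 higher of all 12849 tested genes. The log2 fold change was below 0 in 8 of the 9 tested members, with a median of -0.15 against 0.00 over all tested genes. Without compound 1 replicate 1 it moved toward 0 for TEAD1 and LATS2 and away from 0 for CYR61, as given below. SCH772984 and compound 1 were compared with the same 3 DMSO libraries, so they were also set against each other directly. In that fit all 9 tested members differed, 5 higher and 4 lower with SCH772984, where 33.7% of 13863 tested genes were called higher and 32.6% lower.

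**Figure D1:**
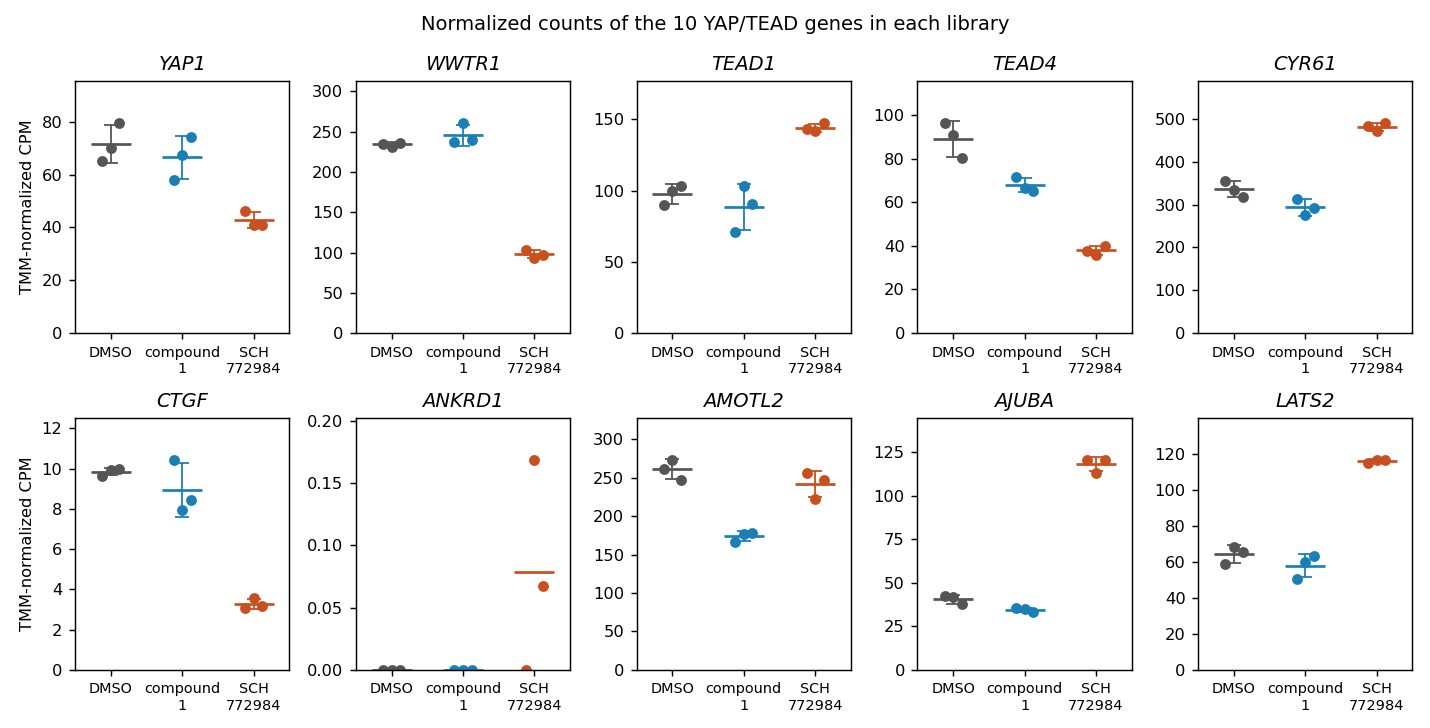
Each panel plots the TMM-normalized CPM of a gene (vertical axis, from 0) in the 3 libraries of each treatment (points), with the group mean (line) and SD (bars, none for ANKRD1). AJUBA and LATS2 rise with SCH772984, WWTR1, TEAD4 and CTGF fall, and AMOTL2 is lowest with compound 1, where its libraries hold 166 to 178 CPM.

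The coactivator YAP1 lies at chr11:102110461-102233423 on the plus strand (hg38). Its libraries held 65.3, 70.0 and 79.6 CPM with DMSO, 57.9, 67.6 and 74.2 CPM with compound 1, and 46.1, 41.1 and 40.8 CPM with SCH772984. All SCH772984 libraries were below all others, and the compound 1 and DMSO libraries overlapped. YAP1 fell by 0.75 on the log2 scale with SCH772984 (SE 0.0840, edgeR adjusted p = 7.65e-11). The log2 difference with compound 1 was -0.10, with a 95% interval of -0.33 to 0.12.

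WWTR1, the paralog of YAP1 (chr3:149517235-149736714, minus strand), had 235, 231 and 237 CPM with DMSO and 237, 261 and 239 CPM with compound 1. With SCH772984 it had 104, 93.8 and 96.3 CPM, far below either group. The fall of 1.26 on the log2 scale (SE 0.0651, edgeR adjusted p = 8.53e-22) left 0.416 of the DMSO level. For compound 1 the log2 difference was 0.07 (95% interval -0.07 to 0.22). WWTR1 was the only tested member with a value above 0 there. WWTR1-AS1, which overlaps it on the other strand, had at most 20 reads counted in a library.

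The balance of the 2 coactivators was followed as a share. YAP1 made up 27.1, 28.8 and 31.0% of the length-corrected counts of YAP1 plus WWTR1 with DMSO, and 37.3, 36.9 and 36.1% with SCH772984. The share with SCH772984 was higher by 7.81 percentage points and the groups did not overlap (two-sided exact permutation p = 0.1, the smallest that 3 against 3 libraries allow, and 0.2 after Benjamini-Hochberg adjustment over 4 comparisons of shares). In the compound 1 libraries the share was 24.6, 25.7 and 29.3% (difference -2.43 percentage points, exact permutation p = 0.3, adjusted 0.4).

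TEAD1 (chr11:12674591-12944483, plus strand) and TEAD4 (chr12:2959330-3040673, plus strand), members of the same DNA-binding family, went in opposite directions with SCH772984. TEAD1 had 89.9, 99.8 and 103 CPM with DMSO, 71.0, 103 and 90.5 CPM with compound 1, and 143, 142 and 147 CPM with SCH772984. It rose by 0.55 on the log2 scale with SCH772984 (SE 0.0687, edgeR adjusted p = 1.29e-09), and all its SCH772984 libraries were above all others. With compound 1 the log2 difference was -0.14 (95% interval -0.39 to 0.11), and it was -0.0045 without compound 1 replicate 1, the library with 71.0 CPM.

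TEAD4 had 96.4, 90.9 and 80.1 CPM with DMSO, 71.8, 66.6 and 65.4 CPM with compound 1, and 37.8, 35.8 and 40.1 CPM with SCH772984. The 3 treatments did not overlap. It fell by 1.24 on the log2 scale with SCH772984 (SE 0.0819, edgeR adjusted p = 6.51e-18) and by 0.39 with compound 1 (SE 0.0865, edgeR adjusted p = 0.0465). The call with compound 1 lay close to the threshold. It was lost with library size alone (adjusted p = 0.0574), with at least 10 counts in every library (0.0512) and with protein-coding genes only (0.0581), and also without DMSO replicate 1 (0.279), 2 (0.305) or 3 (0.0944) or compound 1 replicate 2 (0.0950) or 3 (0.164), while without compound 1 replicate 1 the adjusted p was 0.000189.

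Among all TEAD transcripts, TEAD4 held 64.5 ± 3.83% of the length-corrected counts with DMSO (SD, n = 3), 60.3 ± 2.34% with compound 1 and 36.8 ± 0.643% with SCH772984. TEAD1 held 14.0, 15.9 and 17.2% with DMSO and 31.3, 31.7 and 29.7% with SCH772984, a difference of 15.2 percentage points without overlap (exact permutation p = 0.1, adjusted 0.2). In the compound 1 libraries TEAD1 held 13.7, 20.0 and 18.3% (difference 1.65 percentage points, exact permutation p = 0.5, adjusted 0.5). TEAD3 also rose with SCH772984, from 12.5 to 13.2 CPM with DMSO to 19.3 to 23.4 CPM (log2 fold change 0.74, SE 0.13, edgeR adjusted p = 1.99e-06), and its share went from 6.94 ± 0.430% to 15.5 ± 0.762%. TEAD2, at 21.4 to 26.3 CPM with DMSO and 20.2 to 25.6 CPM with SCH772984, was not called. The ratio of TEAD1 to TEAD4 per kilobase was 0.206 to 0.285 with DMSO and 0.811 to 0.875 with SCH772984. TEAD4 thus remained the more abundant of the 2 in every library.

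**Figure D2:**
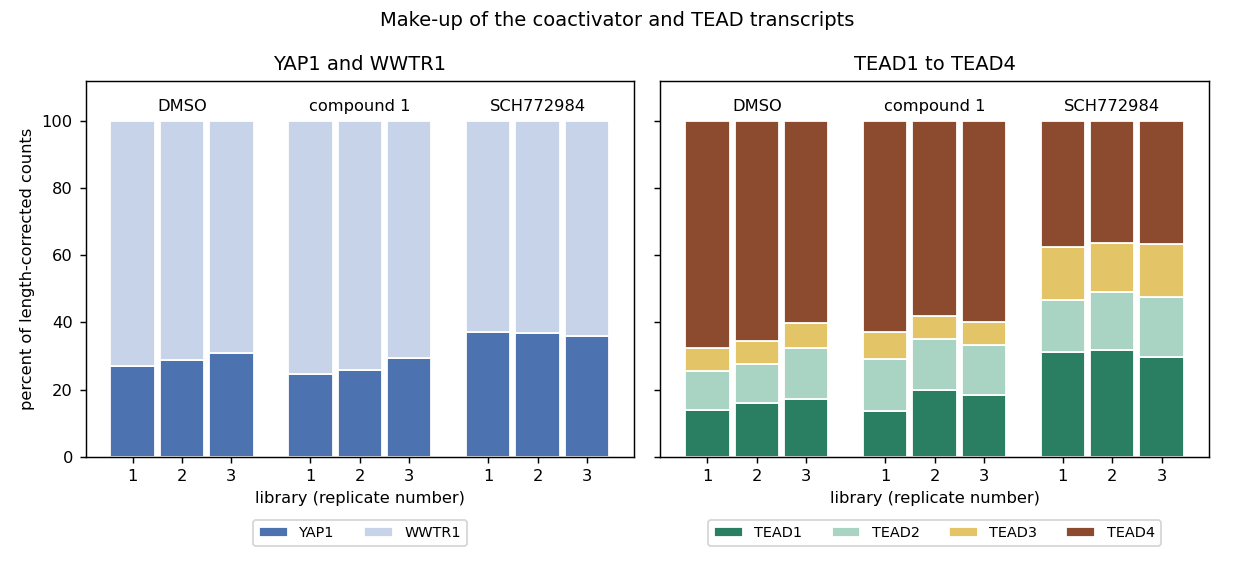
Stacked bars give, for each library, the percent of length-corrected counts held by YAP1 and WWTR1 (left) and by TEAD1 to TEAD4 (right). The TEAD4 part shrinks from 60.3 to 67.7% with DMSO to 36.3 to 37.5% with SCH772984, while the compound 1 libraries hold 58.2 to 62.8%.

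The upstream sequences of the target genes show where the TEAD motif lies. RefSeq windows (GRCh38.p14) of the 250 bases before the transcription start were at hand for 7 of the 10 members, with 10 starts in all. CYR61, TEAD1 and TEAD4 had none. The motif GGAATG was searched on both strands, where the other strand reads CATTCC. It was present in 11.9% of 35116 such windows, at least 2 times in 0.94% and at least 3 times in 0.0826%. CTGF had 3 matches, ANKRD1 2, and YAP1, the second start of AMOTL2 and the second start of AJUBA 1 each, whereas WWTR1, LATS2 and the first starts of AMOTL2 and AJUBA had none. The windows with a match are shown, with the motif in capitals, because they belong to genes that fell (CTGF, YAP1), rose (AJUBA), were not called (AMOTL2) or were not detected above the floor (ANKRD1) with SCH772984. The CTGF window is chr6:131951373-131951622 (minus strand), ANKRD1 chr10:90921088-90921337 (minus), AMOTL2 chr3:134374448-134374697 (minus), AJUBA chr14:22976843-22977092 (minus) and YAP1 chr11:102110197-102110446 (plus).
CTGF: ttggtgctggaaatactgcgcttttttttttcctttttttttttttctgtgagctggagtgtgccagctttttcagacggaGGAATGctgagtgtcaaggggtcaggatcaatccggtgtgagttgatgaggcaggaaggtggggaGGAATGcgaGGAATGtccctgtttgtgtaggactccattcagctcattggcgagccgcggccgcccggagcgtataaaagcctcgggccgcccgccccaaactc
ANKRD1: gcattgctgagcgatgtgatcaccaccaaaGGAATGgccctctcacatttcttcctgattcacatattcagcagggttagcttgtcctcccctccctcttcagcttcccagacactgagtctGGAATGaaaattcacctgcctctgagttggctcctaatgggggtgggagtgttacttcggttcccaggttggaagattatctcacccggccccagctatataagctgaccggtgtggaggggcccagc
AMOTL2, second start: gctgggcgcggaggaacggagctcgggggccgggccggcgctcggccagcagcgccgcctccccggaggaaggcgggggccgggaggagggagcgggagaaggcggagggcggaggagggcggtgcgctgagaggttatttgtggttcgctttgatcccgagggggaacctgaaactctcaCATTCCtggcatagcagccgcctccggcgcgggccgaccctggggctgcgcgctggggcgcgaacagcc
AJUBA, second start: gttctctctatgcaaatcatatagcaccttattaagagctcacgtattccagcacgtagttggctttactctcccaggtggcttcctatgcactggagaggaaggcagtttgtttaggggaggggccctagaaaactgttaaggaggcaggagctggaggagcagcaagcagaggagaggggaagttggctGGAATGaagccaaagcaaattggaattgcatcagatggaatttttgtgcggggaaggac
YAP1: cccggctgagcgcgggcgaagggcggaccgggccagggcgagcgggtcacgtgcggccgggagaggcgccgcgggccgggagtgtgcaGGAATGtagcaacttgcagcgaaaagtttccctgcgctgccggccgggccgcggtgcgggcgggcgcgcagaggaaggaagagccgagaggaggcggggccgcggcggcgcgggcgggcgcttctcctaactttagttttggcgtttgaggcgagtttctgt

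In CTGF the matches begin 169, 104 and 95 bases before the start, so the last 2 are 3 bases apart. In ANKRD1 they begin 220 and 128 bases before it, in YAP1 162, in AMOTL2 69 (on the other strand) and in AJUBA 59. The AP-1 motif TGANTCA, which reads the same on the other strand, was found only in the ANKRD1 window and is present in 6.57% of all windows. The SRF CArG box was in none of the 10 windows and in 1.16% of all. The matches do not overlap each other, and they are letters in a window, not measured binding. Windows with a TEAD match thus belonged to members that moved in either direction.

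**Figure D3:**
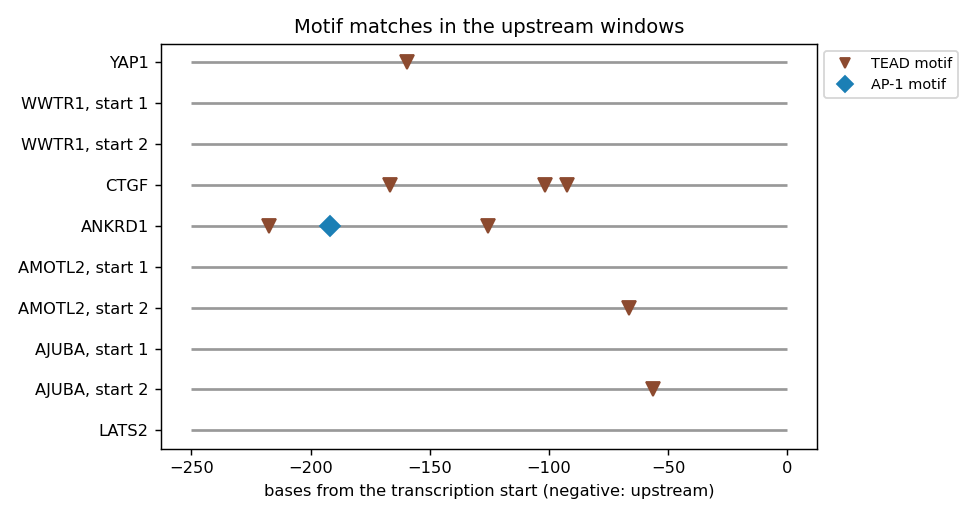
Horizontal lines are the 250-base upstream windows of 7 members (10 starts), with distance from the transcription start on the horizontal axis and each match to the TEAD or AP-1 motif as a symbol. CTGF holds 3 TEAD matches between 169 and 90 bases before its start.

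Of the classical target genes, CYR61 rose and CTGF fell with SCH772984. CYR61 (chr1:85580761-85583962, plus strand) had 356, 334 and 319 CPM with DMSO, 314, 275 and 292 CPM with compound 1, and 483, 471 and 490 CPM with SCH772984. The 3 treatments did not overlap. The rise with SCH772984 was 0.51 on the log2 scale (SE 0.0600, edgeR adjusted p = 2.80e-10). With compound 1 the log2 difference was -0.19 (95% interval -0.34 to -0.05) and failed the correction (edgeR adjusted p = 0.193). Without compound 1 replicate 1 it was -0.24 with an adjusted p of 0.00261.

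CTGF (chr6:131948176-131951373, minus strand), whose upstream window held the 3 TEAD matches above, was a low gene in these cells. Its raw counts were 94, 90 and 91 with DMSO, 97, 76 and 81 with compound 1, and 37, 42 and 47 with SCH772984. After scaling these were 9.64, 9.94 and 9.96 CPM, then 10.4, 7.94 and 8.42 CPM, then 3.08, 3.54 and 3.16 CPM. CTGF fell by 1.60 on the log2 scale with SCH772984 (SE 0.196, edgeR adjusted p = 8.78e-10), the largest fall among the tested members. Its log2 difference with compound 1 was -0.14, and the interval of -0.48 to 0.20 was the widest of the 9. The ratio of CYR61 to CTGF per kilobase, a pair chosen after its values were seen, was 28.7 to 35.2 in the 6 DMSO and compound 1 libraries and 127 to 149.7 in the SCH772984 libraries.

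ANKRD1 (chr10:90912096-90921276, minus strand), a cardiac and muscle ankyrin repeat protein often used as a YAP1 target in other cells, had 0 counts in all DMSO and compound 1 libraries and 0, 2 and 1 counts with SCH772984. No group passed the floor of 3 counts in a library, so that no fold is given. This depth does not show whether ANKRD1 is expressed at all in these cells.

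AMOTL2 (chr3:134355874-134375479, minus strand), an angiomotin family protein that binds YAP1, was called lower with compound 1 and was not called with SCH772984. It had 262, 273 and 247 CPM with DMSO, 166, 177 and 178 CPM with compound 1, and 255, 223 and 247 CPM with SCH772984. The compound 1 libraries lay below all others, and the SCH772984 and DMSO libraries overlapped. AMOTL2 fell by 0.58 on the log2 scale with compound 1 (SE 0.0685, edgeR adjusted p = 0.000722), to 0.668 of the DMSO level. Only 1.14% of the genes tested had a log2 fold change as low or lower in that comparison. The call held without each of the 6 libraries in turn. With SCH772984 the log2 difference from DMSO was -0.12 (95% interval -0.24 to 0.01, edgeR adjusted p = 0.101), and the direct comparison placed SCH772984 above compound 1 by 0.48 (SE 0.0844, edgeR adjusted p = 4.60e-05). The difference between SCH772984 and DMSO changed sign, to 0.06, with library size alone, and it passed the threshold without DMSO replicate 3 (adjusted p = 0.0355), SCH772984 replicate 1 (0.0229) or SCH772984 replicate 3 (0.0400).

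AJUBA (chr14:22971174-22982642, minus strand) showed the largest rise of the 9 tested members with SCH772984. Its libraries held 42.2, 41.96 and 37.5 CPM with DMSO, 35.2, 34.8 and 33.2 CPM with compound 1, and 120, 113 and 121 CPM with SCH772984. The rise was 1.53 on the log2 scale, or 2.90-fold (SE 0.0770, edgeR adjusted p = 3.26e-22). The compound 1 libraries were all below the DMSO libraries, with a log2 difference of -0.24 (95% interval -0.44 to -0.04) that failed the correction (edgeR adjusted p = 0.240, and 0.0868 without compound 1 replicate 1). Set directly against compound 1, AJUBA was 3.44-fold higher with SCH772984 (edgeR adjusted p = 1.40e-12).

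LATS2 (chr13:20973032-21061547, minus strand), the Hippo kinase that inactivates YAP1 and WWTR1, had 58.5, 68.4 and 65.2 CPM with DMSO, 50.4, 59.9 and 62.9 CPM with compound 1, and 115, 117 and 116 CPM with SCH772984. It rose by 0.85 on the log2 scale, or 1.80-fold, with SCH772984 (SE 0.0731, edgeR adjusted p = 3.66e-14), and the SCH772984 libraries stood clear of the other 6. For LATS2 the log2 difference with compound 1 was -0.15 (95% interval -0.36 to 0.07). It was -0.05 without compound 1 replicate 1, which had the lowest value of all 9 libraries.

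In the direct comparison the other members were called as follows. YAP1 was lower with SCH772984 than with compound 1 by 0.64 on the log2 scale (edgeR adjusted p = 2.58e-05), WWTR1 by 1.33 (3.25e-11), TEAD4 by 0.84 (1.99e-07) and CTGF by 1.45 (2.88e-06). TEAD1 was higher by 0.70 (1.08e-05), CYR61 by 0.71 (9.93e-08) and LATS2 by 1.00 (1.69e-08).

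**Figure D4:**
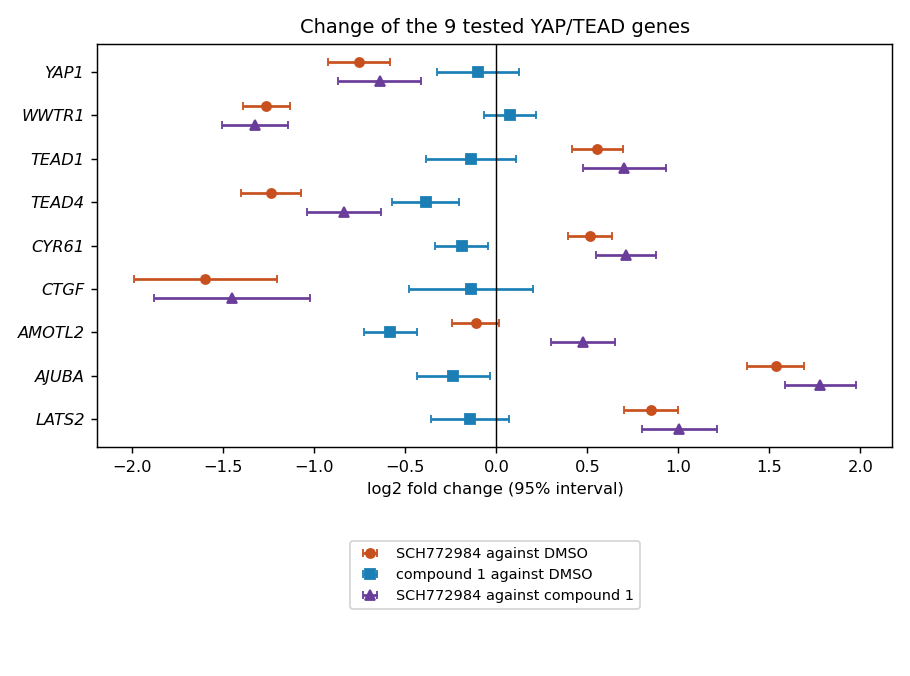
Points are log2 fold changes of the 9 tested members from edgeR, with 95% intervals, for SCH772984 against DMSO (circles), compound 1 against DMSO (squares) and SCH772984 against compound 1 (triangles). The compound 1 values lie between -0.58 (AMOTL2) and 0.07 (WWTR1), whereas the SCH772984 values run from -1.60 (CTGF) to 1.53 (AJUBA).

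Other YAP/TEAD target genes were also split with SCH772984. Of 17 listed genes, 13 were tested, and 5 were higher and 8 lower, beside 37.2% and 35.5% of all tested genes. The largest rises were CCDC80 (log2 fold change 2.13), RBMS3 (1.89) and ARHGEF17, which went from 53.1, 54.5 and 55.2 CPM to 171, 169 and 182 CPM (1.68). CCDC80 had 9, 3 and 7 counts with DMSO and 36, 38 and 43 with SCH772984, so it passed the minimum count only through the group where it is high. With at least 10 counts in every library 4 listed targets were higher, beside 4424 higher and 4295 lower of all 11970 tested genes. The largest falls were FJX1 (from 79.0, 76.1 and 65.9 CPM to 15.4, 13.5 and 14.2 CPM, log2 fold change -2.37), NT5E, the ecto-nucleotidase CD73 (from 810, 786 and 763 CPM to 177, 181 and 165 CPM, -2.18), and MYOF (-1.10). The median over the 13 genes was -0.39, against 0.03 over all tested genes. GADD45A, the smallest fall (-0.20), was not called with library size alone.

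With compound 1, AXL, a receptor tyrosine kinase and known YAP1 target, was the 1 of 13 tested targets called, beside 0.374% of all tested genes lower and 0.49% higher. It had 268, 236 and 222 CPM with DMSO and 196, 166 and 163 CPM with compound 1, without overlap, a fall of 0.46 on the log2 scale (SE 0.0846, edgeR adjusted p = 0.0247). SCH772984 lowered AXL too, to 184, 180 and 193 CPM (-0.39, edgeR adjusted p = 1.46e-06), and the direct test between the inhibitors did not call it (0.08, 95% interval -0.10 to 0.26), though with library size alone AXL was higher with SCH772984 by 0.22 (edgeR adjusted p = 0.0267). Listed targets lower with compound 1 numbered 0 without any of the other 5 libraries (each left out in turn), and 4, with 1 higher, without compound 1 replicate 1, where 798 of all 13084 tested genes were lower and 453 higher.

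Of 31 other Hippo pathway genes, 25 were tested with SCH772984, and 8 were higher and 9 lower, near the 37.2% and 35.5% of all tested genes. With library size alone TAOK1 and VGLL4 were also called higher, and LATS1, WWC1 and WWC2 were no longer called lower. In that setting 6242 of all 13834 tested genes were higher and 3911 lower. No gene of these lists was called with compound 1, where edgeR had 3 lower and 0 higher at an unadjusted p under 0.05 (7.69% and 7.35% of all tested genes) and DESeq2 called 0. Without compound 1 replicate 1, edgeR called 3 lower and 1 higher after adjustment, beside the 798 and 453 of 13084 genes given above. In the direct comparison, with 26 tested, 7 were higher and 8 lower with SCH772984, beside 33.7% and 32.6% of all tested genes. With library size alone 9 were higher and 3 lower, beside 5526 higher and 3736 lower of all 13863 tested genes. The 8 include MAP4K1, with 10, 13 and 10 counts with compound 1 and 2, 6 and 12 with SCH772984, which passed the minimum count only through the compound 1 libraries, where it is high, and was not tested against DMSO. For SCH772984 against DMSO, the cofactor VGLL4, which competes with YAP1 for TEADs, was not called (0.22). It was called higher there with library size alone (0.40, edgeR adjusted p = 0.00913). VGLL1, VGLL2 and VGLL3 had at most 2 counts in a library.

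Among the kinases and adaptors, 5 of 14 tested genes were higher and 5 lower with SCH772984, near the same background of 37.2% and 35.5%. STK4 (MST1), which activates the LATS kinases, fell from 77.5, 82.4 and 78.6 CPM to 40.7, 40.2 and 33.1 CPM (log2 fold change -1.07, edgeR adjusted p = 1.45e-15), while its paralog STK3 was not called (-0.13). MAP4K5 (-0.62) and MAP4K4 (-0.50) fell as well, and TAOK2 (0.51), MAP4K2 (0.46) and MINK1 (0.39) rose, all of them kinases that act upstream of the LATS proteins. LATS1 was lower by 0.31 (edgeR adjusted p = 0.00212), a call lost with library size alone. With LATS2 higher by 0.85, LATS2 stood 2.34- to 2.65-fold above LATS1 per kilobase with DMSO and 5.24- to 5.88-fold above it with SCH772984. This pair, too, was chosen after its values were seen.

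Of the membrane and junction regulators, 2 of 8 tested genes were higher and 4 lower with SCH772984, where the background was 37.2% and 35.5%. NF2, the tumor suppressor merlin that recruits LATS kinases to the membrane, had 176, 176 and 179 CPM with DMSO and 90.0, 82.0 and 94.2 CPM with SCH772984 (a fall of 1.00 on the log2 scale, edgeR adjusted p = 1.50e-17). LIMD1, a relative of AJUBA, fell by 0.45 (edgeR adjusted p = 2.10e-05). With AJUBA higher by 1.53 and LIMD1 lower, the AJUBA to LIMD1 ratio per kilobase went from 1.98 to 2.13 with DMSO to 8.14 to 8.33 with SCH772984. The third relative, WTIP, was not called (-0.07). WWC1 (-0.26) and WWC2 (-0.24) were lower as well. Neither was called with library size alone, which left NF2 and LIMD1 as the lower genes of this list. WWC3 (0.47) and AMOTL1 (0.50), a relative of AMOTL2, were higher. AMOT itself had 0 counts in all 9 libraries.

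**Figure D5:**
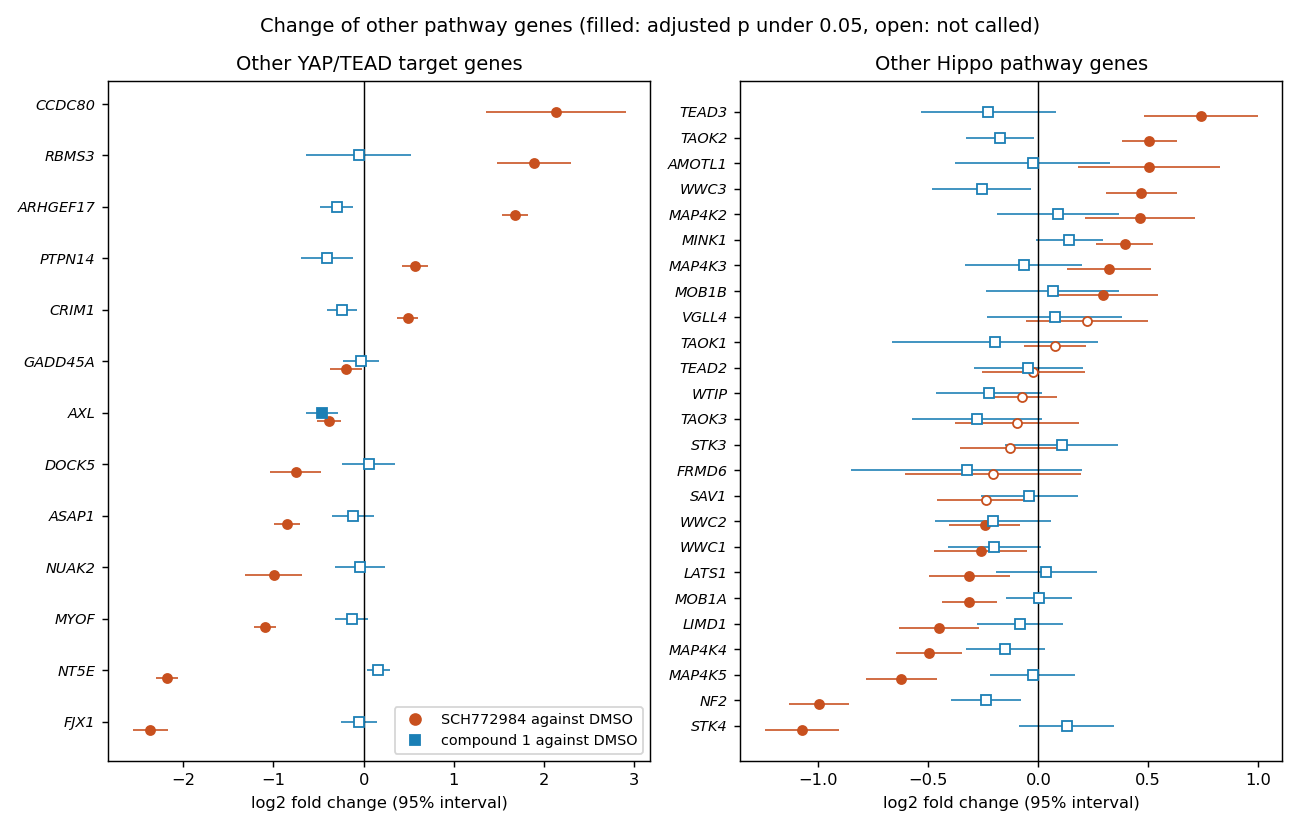
Log2 fold changes with 95% intervals of the tested genes among the other YAP/TEAD targets (left) and the other Hippo pathway genes (right), for SCH772984 (circles) and compound 1 (squares) against DMSO. Filled symbols passed the adjusted threshold: 13 targets and 17 Hippo pathway genes with SCH772984, where 37.2% of all tested genes were higher and 35.5% lower, and AXL with compound 1, where 0.49% were higher and 0.374% lower.

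The genes with the pattern most like CTGF and CYR61 are given as a description. Over the 9 libraries, the log2 CPM of CTGF was most like that of DDX39A, MCM5 and SNRPD3 (Pearson r 0.996 for each) among 9958 protein-coding genes with a mean of at least 5 CPM. For CYR61 these were MISP (r 0.995), ERF (0.994) and NEO1 (0.992). The 9 points share their treatments, so r mostly reflects the 3 group levels: MCM5 averaged 177 and 159 CPM in the DMSO and compound 1 libraries and 50.3 CPM in the SCH772984 libraries. ERF, a transcriptional repressor controlled by ERK, averaged 104.5, 82.2 and 172 CPM in the same order.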

How the data were processed

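RNA from 9 libraries of MIA PaCa-2 cells was counted per gene. The authors deposited raw read counts for 58735 genes without normalization. The submitters' processing notes name HISAT2 2.0.5, featureCounts 1.5.0-p3 and hg38, and the strand setting is not given in the sources used here. Identifiers and coordinates of the 10 members matched GENCODE release 29. Library totals were 9464432 to 13887859 counts, and CTGF, with 37 to 97 counts, was the tested member with the least depth.

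Libraries were grouped by their labels, 3 per treatment. Each pair of treatments was fitted across all genes with edgeR 4.0.16 (quasi-likelihood, robust, R 4.3.3), TMM scaling and filterByExpr (minimum count 10, minimum total 15), and a gene was called at a Benjamini-Hochberg adjusted p under 0.05. The floor was 3 counts per library. CPM per kilobase and shares used the deposited gene lengths. Shares were compared by two-sided exact permutation tests. The fits were tested on simulated data. The members and gene lists were chosen with earlier results of these data known. Named are all members, from each other pathway list up to 3 largest rises and falls called with SCH772984 and every gene called with compound 1, marker and ERK output genes, and the 3 genes with the highest Pearson r to CTGF and to CYR61. Other genes named as relatives of members, for a small count or for a call that changed with the scaling (STK3, LATS1, MAP4K1, TEAD2, TEAD3, VGLL4, GADD45A, WTIP, WWC2, TAOK1) and the gene pairs given as ratios were chosen after their values were seen. The main fits did not pair the libraries by replicate number. The correlation of deviations of same-numbered libraries was -0.08 to 0.11, which cannot show whether same-numbered libraries shared a culture. Alternatives were a single fit of all 9 libraries, DESeq2 1.42.0, a block for the replicate number, other scaling (RLE factors or library size alone), other filters (none, 10 counts in each library, protein-coding genes), other thresholds (unadjusted p, or adjusted p with 2-fold), shares without length, and leaving out each library. TEAD, AP-1 and CArG motifs were searched in RefSeq upstream windows with Python.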

Additional observations from a re-analysis of the deposited data

How the results depend on the processing

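Requiring at least a 2-fold change moved the SCH772984 counts most. It left 1 higher member, AJUBA, and kept WWTR1, TEAD4 and CTGF lower, so the members were no longer split equally. Other targets went to 3 higher and 3 lower, and other Hippo genes to 0 higher and 1 lower. The direct comparison went to 2 higher and 2 lower members, 3 higher and 2 lower other targets and 0 higher and 2 lower other Hippo genes. MAP4K1, a gene with few counts, is 1 of these last 2. With compound 1 the 2-fold rule left 0 lower members and 0 lower other targets, while an unadjusted p gave 4 lower members, 1 higher and 4 lower other targets and 3 lower other Hippo genes. Members lower with compound 1 numbered 1 with library size alone, with at least 10 counts in every library and with protein-coding genes only, and 1 to 3 with each library left out. Other targets lower with compound 1 numbered 3 with no filter on low counts, 2 with the replicate number as a block (replicate block) and 0 to 4 with each library left out, other targets higher 0 to 1, and other Hippo genes 0 to 1 higher and 0 to 3 lower. The 3 and 4 at the top of these ranges came without compound 1 replicate 1. In the direct comparison 3 other Hippo genes were lower with library size alone. The cause of these moves was not tested. AMOTL2 reversed to a log2 difference of 0.0596 with library size alone for SCH772984 against DMSO. The replicate block moved no other member or list count by more than 1.5 times, and no label ties the numbers to a shared culture. Of the members' own fold changes under the alternatives, 136 with SCH772984, 131 with compound 1 and 139 in the direct comparison kept their direction and their side of the threshold, 4, 10 and 5 lost the call, and 3, 3 and 0 gained it. Over all genes, calls with compound 1 (63 higher, 48 lower) numbered 189 and 228 with no filter, 193 and 219 with the replicate block, 91 and 97 in the fit of all 9 libraries, 117 and 119 with DESeq2, 85 and 25 with library size alone, 38 and 32 for protein-coding genes, 945 and 988 unadjusted, 6 and 0 at 2-fold, and 5 to 453 and 3 to 798 with each library left out. At 2-fold, 2517 genes were higher and 1472 lower with SCH772984, and 2293 and 1396 in the direct comparison. At 37 to 97 counts a library, CTGF changes smaller than its interval with compound 1 were not detectable, and ANKRD1 was below the floor.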
